A study of Mus musculus with 6 samples.

Results

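The 2 arms of the mouse miR-324 precursor, miR-324-5p and miR-324-3p, were followed on microRNA (miRNA) arrays of MCT cells with and without transforming growth factor beta (TGFβ). They are 2 of the 611 mouse miRNA entries on the array and were picked by name, after earlier results of these data had shown lower values of these arms with TGFβ. All 6 arrays come from a single line: MCT cells derive from mouse kidney tubule (background SJL H-2S). Cells of both groups were kept in 10% serum and held in 0.5% serum before the TGFβ step. The control group (3 arrays) received no TGFβ and the treated group (3 arrays) received 3 ng/ml for 72 hours. Total RNA (100 ng per array) was labelled with Cy3 and each sample was read on a one-colour Agilent array. The labels number the replicates but do not say that they came from separate cultures, so the spread between arrays may be technical.

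In kidney tubule cells TGFβ is a main inducer of fibrotic and mesenchymal genes. A miRNA precursor is a hairpin whose sides, the 5p and 3p arms, can each be loaded into Argonaute, where the seed near the 5′ end of the loaded strand selects target mRNAs. miR-324-5p has been reported to target Gli1 and Smoothened, components of the Hedgehog pathway. The miR-324 precursor is known for arm switching: tailing by the uridylyl transferases TUT4 and TUT7 shifts the Dicer cut and favours the 3p arm over the 5p arm.

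The precursor and its arms are shown because both strands were followed. In the hairpin, capitals mark the arms (5p on the left, 3p on the right), and in each mature sequence they mark the seed (bases 2 to 8). Sequences are from RefSeq (GRCm38.p6, plus strand), where both arms were matched by name.
Mir324 hairpin: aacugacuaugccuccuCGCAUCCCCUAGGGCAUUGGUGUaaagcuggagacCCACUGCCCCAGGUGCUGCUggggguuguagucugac
mmu-miR-324-5p: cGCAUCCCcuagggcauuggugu
mmu-miR-324-3p: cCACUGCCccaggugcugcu
The hairpin has 89 bases, and 12 bases lie between the arms. RNAfold paired 15 bases of the 5p arm with the 3p arm in a structure of -36.9 kcal/mol. The 5p arm has 23 bases and a GC share of 60.9%, and the 3p arm has 20 bases and a GC share of 70.0%. Neither seed was shared with another of the 1679 mature mouse names in the table. Mir324 is on chromosome 11, within the interval of Acadvl, which encodes an enzyme of fatty acid oxidation. The arrays were designed on another genome build (mm9), so no coordinates are given.

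The series as a whole set limits on these values. Between 74 and 103 of the 611 mouse miRNAs were well above background on an array, a mark of the scanner software that is counted here for a miRNA when at least 0.5 of the spots of any of its probes carry it. The 75th percentile used to scale the arrays lay between 249.5 and 402.4 intensity units, at 363.7, 268.6 and 249.5 for the 3 controls in number order and 365.3, 402.4 and 339.9 for the treated arrays, so scaling raised controls 2 and 3 and lowered the other arrays. Control 1 lay nearer to TGFβ 1, 2 and 3 (median absolute log2 differences of 0.26, 0.21 and 0.16 over the 84 tested miRNAs) than to controls 2 and 3 (0.48 and 0.52). Results are therefore also given without it. Of the markers expected in tubule, miR-30a, miR-10a, miR-10b and miR-196a were well above background on all 6 arrays and miR-30c and miR-30d on 4, while miR-192, miR-194 and miR-215 never were. The 5 epithelial miR-200 family members also never were (0 of 5). The same held for markers of mesenchyme (0 of 3), smooth muscle (0 of 2), blood (0 of 6) and endothelium (0 of 2). Of the list of muscle and neuron markers 1 of 5, miR-206, was well above background, on control 1 and all TGFβ arrays.

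miR-324-5p, the Hedgehog-linked arm, was measured on every array and read lower with TGFβ. Its level, the mean of 2 probes, before scaling was 36.5, 40.4 and 38.7 intensity units in controls 1, 2 and 3 and 36.9, 34.1 and 29.5 in TGFβ 1, 2 and 3. TGFβ 1 thus read just above control 1, and the other 8 of 9 pairings of a TGFβ with a control array were lower. The group means were 38.6 ± 1.94 and 33.5 ± 3.74 (SD, n = 3), so the treated cells held 86.8% of the control signal. In a bulk extract, fewer expressing cells and less RNA per cell cannot be told apart.

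Scaling widened the gap. The log2 scaled levels were 5.04, 5.62 and 5.67 in control and 5.04, 4.79 and 4.83 in TGFβ-treated cells, in replicate order as throughout. Controls 2 and 3 were high, and control 1 read like TGFβ 1, as it had before scaling. The means were 5.44 ± 0.35 and 4.89 ± 0.14 (SD, n = 3), a log2 difference of -0.55 (SE 0.21 in the limma fit), or 67.1% of the control level on the linear scale. Without scaling between arrays the log2 difference was -0.21, so much of its size came with the scaling, while the sign was the same. Because the members were chosen on this contrast, the difference is a description and no p-value is given for it.

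The arm is read by 2 probes of 10 spots each, and they were not alike. The brighter probe, A_54_P2512, was well above background in 60 of 60 spots over the 6 arrays. Its unscaled signal was 64.6 ± 4.83, 65.0 ± 5.87 and 62.3 ± 8.31 on controls 1 to 3 (SD over the spots not marked as outliers). On TGFβ 1 to 3 it was 59.6 ± 2.88, 56.7 ± 5.53 and 50.9 ± 7.03. On this probe the groups did not overlap, with control means of 63.9 ± 1.48 and TGFβ means of 55.7 ± 4.45 (SD, n = 3), or 87.1% of control. Negative control spots had medians between 1.65 and 3.14 units on the 6 arrays, so this probe stood far above them. After scaling the groups did not overlap on it either, at 58.0, 79.1 and 81.5 in control and 53.3, 46.1 and 48.9 in TGFβ-treated cells.

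**Figure D1:**
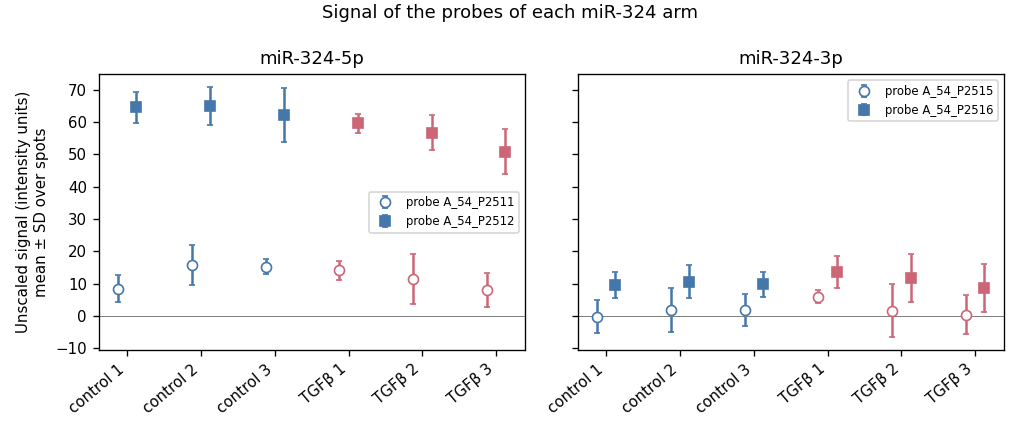
Unscaled signal in intensity units (y axis) on each of the 6 arrays (x axis, controls in blue and TGFβ in red) for both probes of miR-324-5p (left) and both probes of miR-324-3p (right); points are means and bars the SD over spots not marked as outliers. Only probe A_54_P2512 of miR-324-5p, between 50.9 and 65.0 units, stood clear of the others, which all lay at 15.8 units or less.

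The dimmer miR-324-5p probe, A_54_P2511, carried little signal. It was well above background in 3 of 60 spots, 0 of them on control arrays, and its means ran from 8.10 to 15.8 units. Its signal was 8.48, 15.8 and 15.2 units in control and 14.2, 11.4 and 8.10 in treated cells. Control 1 was as low as TGFβ 3 here, and the overlap of the groups in the 2-probe mean came from this probe.

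**Figure D2:**
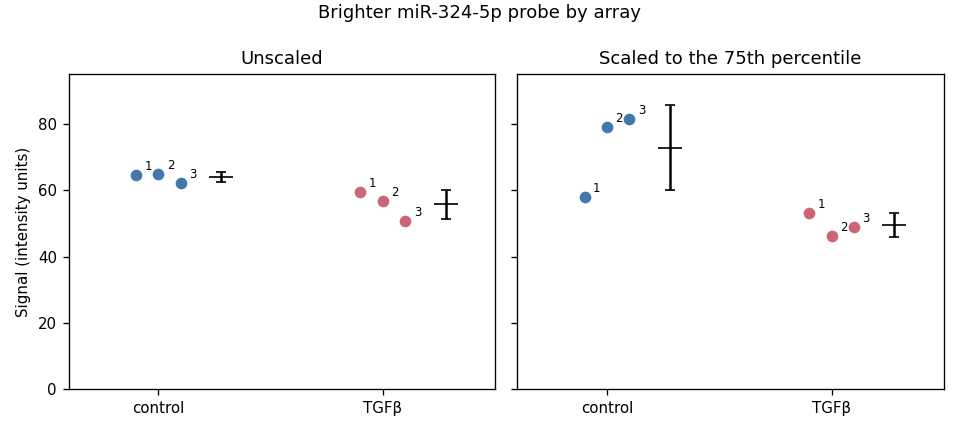
Signal of the brighter miR-324-5p probe (y axis, intensity units, from 0) in control and TGFβ arrays before scaling (left) and after scaling to the 75th percentile (right); points are arrays with their replicate numbers, and black bars give the mean and SD of 3 arrays. The groups were apart in both panels, and scaling changed the control mean from 63.9 ± 1.48 to 72.9 ± 12.9 units.

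The scanner software's own summary over probes (total gene signal, unscaled) for miR-324-5p was 42.9, 43.1 and 41.3 units in control and 39.5, 37.7 and 33.8 in TGFβ-treated cells. All 3 treated values lay below all 3 control values, with means of 42.4 ± 0.99 and 37.0 ± 2.95 (SD, n = 3). Its error estimate on single arrays was between 4.68 and 5.58 units, about as large as the difference of the means. Among the 84 tested miRNAs, the share that was lower in this non-overlapping way was 1.19% (1 of 84) in that summary and also 1.19% (1 of 84) for the unscaled brightest probe. In both, miR-324-5p was that miRNA. With scaling the share was 7.14% (6 of 84) for the brightest probe, miR-324-5p included, and 5.95% (5 of 84) for the mean of probes, without it. Without control 1, 38 of 85 were lower in this way for the scaled mean of probes. Since the arm was chosen for being low with TGFβ, nothing is read from these shares.

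Across the array, limma called 0 of the 84 tested miRNAs at an adjusted p under 0.05 (0%; smallest adjusted p = 0.391), and 8 had an unadjusted p under 0.05 (3 lower, 5 higher). miR-324-5p is among the 3 lower, and because it was chosen on this contrast nothing is read from that. Some of the 5 higher, such as miR-689 and miR-714, passed the filter through the TGFβ group only. Without control 1, 31 of 85 tested were called. These p-values measure only the spread between these arrays. With the replicate number as a block, 1 of 84 was called, and the miR-324-5p difference was again -0.55 (SE 0.26). Of the 84, 49 were lower with TGFβ and 35 higher, with a median log2 difference of -0.09 (quartiles -0.30 and 0.28). miR-324-5p stood 4th from the lowest. miR-30a* (-0.60, SE 0.48), the opposite arm of the kidney miRNA miR-30a, was just below it, and miR-98 (-0.53, SE 0.18), of the let-7 family, was just above. These neighbours lay within an SE of it. Without scaling the median over the 84 moved to 0.26, and miR-324-5p was among 17 that read lower. Scaling by 1 factor per array shifts the log2 differences almost alike. The rank of miR-324-5p (4th) and its distance from the median (-0.46) were therefore bound to be the same with and without scaling.

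**Figure D3:**
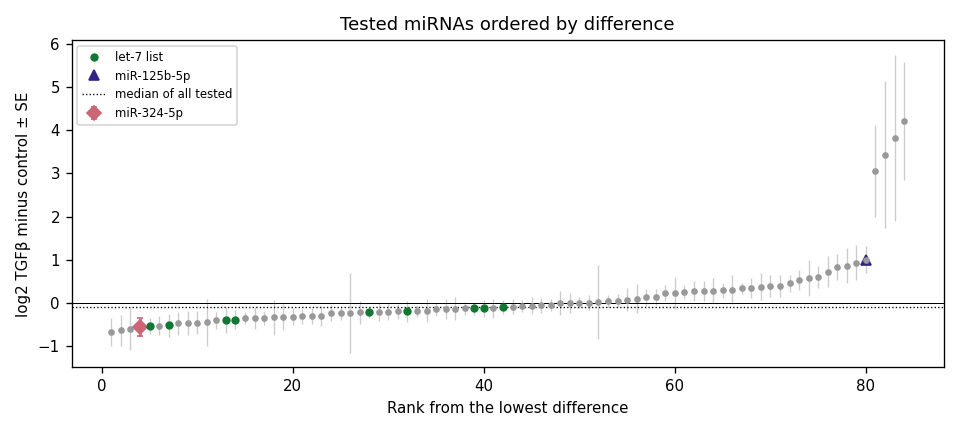
log2 difference of scaled signal, TGFβ minus control (y axis, with the SE of the limma fit), for the 84 tested miRNAs in order of their difference (x axis). miR-324-5p (red diamond, -0.55) was 4th from the lowest, miR-125b-5p (blue triangle) was near the other end at 1.00, and the 9 let-7 list members (green) ran from -0.53 to -0.10 on this scaled scale.

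The size of the miR-324-5p difference depended on single arrays. Without control 1 it was -0.76. Leaving out each of the other arrays gave values between -0.63 and -0.44. Within the slide columns that held both groups, TGFβ 2 minus control 1 was -0.25 (column 1) and TGFβ 3 minus control 2 was -0.79 (column 2). The controls and TGFβ 1 lay in slide row 1 and TGFβ 2 and 3 in row 2, so each of these differences is also one between the rows, and row and treatment are largely confounded. With the row as a block, where TGFβ 1 alone carries the comparison, the difference was -0.40 (SE 0.31). With the normexp background correction, run on median spot signals with an offset of 50 units, it was -0.34.

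Sums of some marker lists differed between the groups on the scaled scale, and their part in the miR-324-5p difference was not tested. The summed scaled signal of the 9 tubule markers was between 753 and 1010.2 units in control and between 678 and 711 in TGFβ arrays. The groups did not overlap on this scaled scale, where controls 2 and 3 were raised and the treated arrays lowered. Undoing the scale factors makes them overlap. Of its 5 tested members 4 read lower and 1 higher, with a median log2 difference of -0.35, and 3 read lower and 2 higher without scaling. Over all 84 tested miRNAs, 49 read lower with scaling and 17 without. The sum over the 5 muscle and neuron markers, also scaled, was between 18.3 and 27.0 units in control and between 28.9 and 33.8 with TGFβ. Its only tested member, miR-206, differed by 0.60 (SE 0.25). That miRNA was well above background on only 4 arrays, and of the controls only on control 1. It thus entered the tested set through the TGFβ group, where it read higher. The rest of the list was well above background on 0 arrays, so the sum mostly restates miR-206. With the normexp correction the miR-206 difference was -0.096, so the sign turned. The blood list overlapped, between 17.2 and 26.9 units in control and between 13.8 and 25.5 with TGFβ.

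miR-324-3p, the arm favoured when the precursor is uridylated, was well above background on 0 of 6 arrays, and the scanner software listed it as not detected on all of them. It did not enter the limma fit, and these data give it no direction, although it was proposed as lower with TGFβ. The unscaled mean of its 2 probes was 4.70, 6.27 and 5.83 units in control and 9.83, 6.76 and 4.48 in treated cells. The highest and the lowest of these 6 values were both on treated arrays. On the log2 scaled scale the means were 2.65 ± 0.49 and 2.57 ± 0.52 (SD, n = 3), and the groups overlapped. The difference was -0.08 with scaling and 0.26 without, so its sign turned with the scaling.

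The brighter miR-324-3p probe, A_54_P2516, read 9.63, 10.7 and 9.76 units in control and 13.6, 11.9 and 8.58 in treated cells. Control values sat inside the range of the treated ones. The 95th percentile of single negative control spots was 11.1, 11.8 and 12.2 units on the control arrays and 11.4, 11.7 and 12.6 on the treated ones. The probe's mean lay under it on all controls and on TGFβ 3, but a mean over spots and single spots are unlike measures. Of the 1572 probes never well above background, 96.5% lay at or below its mean over the 6 arrays (10.7 units). The software marked 85.0% of its spots (51 of 60) as positive and significant, a looser mark than well above background, of which there was 1. The looser mark was carried by 21.6% of 63114 spots on mouse probes never well above background and by 32.8% of negative control spots. The other probe, A_54_P2515, carried the mark on 30.0% of its spots, near the negative controls. Positive marks on the brighter probe were as frequent in control (26 of 30 spots) as in TGFβ arrays (25 of 30 spots) to within 1 spot.

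The ratio of the arms on an array does not depend on scaling by a single factor, but here its denominator was signal below the detection mark. Probes differ in how well they bind, so the ratio's size says nothing of which arm is more abundant and only its change between arrays is described. The log2 ratio of 5p over 3p signal was 2.96, 2.69 and 2.73 in control and 1.91, 2.33 and 2.72 in treated cells. TGFβ 1 was lowest and TGFβ 3 lay within the control range. The mean went from 2.79 ± 0.14 to 2.32 ± 0.41 (SD, n = 3), a change of -0.47. It was -0.27 without TGFβ 1 and -0.67 without TGFβ 3, the ends of the range over single arrays left out. It was -0.21 with array weights, -0.093 with normexp and -0.89 with the slide row as a block. Whether the arms differed in response was not tested.

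Other precursors on the array gave a frame for an arm seen alone. Of 62 precursors listed with a 5p and a 3p entry, 11 had only the 5p arm well above background on at least 1 array, miR-324 among them. In 5 only the 3p arm was, in 1 both were and in 45 neither was. Counting also the pairs named with an asterisk (155 in all), both arms were well above background on the same array for only 3: miR-125a, miR-140 and miR-30a. Their log2 arm ratios changed by -0.77, -0.67 and -0.08 with TGFβ. For miR-125a and miR-140 the weaker arm was well above background on 1 array, so only miR-30a, with its weaker arm measured on 5 arrays, had a ratio of measured levels.

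Patterns over the 6 arrays were compared by the Pearson correlation of log2 scaled signals, given as a description because the points share arrays and scale factors. The 5 tested miRNAs most like miR-324-5p were miR-30a (0.97), abundant in kidney epithelium, miR-130b (0.97), miR-27b (0.96), miR-130a (0.95) and miR-24 (0.95). They were not set apart from the rest: miR-107, at rank 10, still correlated at 0.91 and miR-221, at rank 22, at 0.82. miR-30a ranked the arrays in the same order as miR-324-5p, with a Spearman correlation of 1. All 5 were high on controls 2 and 3 and differed by -0.68, -0.35, -0.63, -0.46 and -0.23 between the groups. Both traits follow from picking them by correlation with miR-324-5p. Without scaling the correlation was 0.84 for miR-30a, 0.85 for miR-27b and 0.79 for miR-130a, but 0.24 for miR-130b and 0.14 for miR-24. For miR-324-3p, whose values are near background, the closest were miR-500 (0.95) and miR-26a (0.88), followed by miR-16 (0.87), miR-99b (0.79) and miR-361 (0.78).

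**Figure D4:**
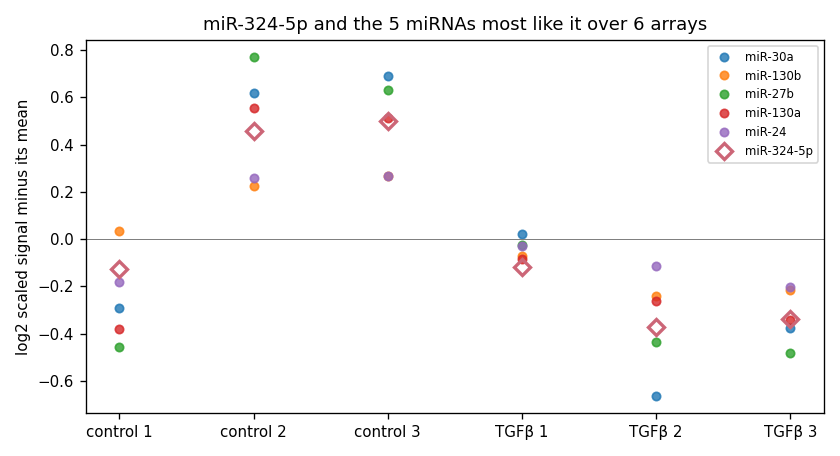
log2 scaled signal minus its own mean over the arrays (y axis) for miR-324-5p (open red diamonds) and the 5 tested miRNAs with the highest Pearson correlation with it (dots), on each of the 6 arrays (x axis). All were highest on controls 2 and 3, and miR-324-5p read about the same on control 1 and TGFβ 1 (5.04 on both).

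The Hedgehog list has other members, miRNAs reported to act on Smoothened, and the only one of them measured did not read like miR-324-5p. miR-125b-5p had log2 scaled levels of 7.37, 6.43 and 6.38 in control and 7.80, 7.96 and 7.43 in treated cells. All treated values were above all control values, a difference of 1.00 (SE 0.32), and 1.35 without scaling. Of the 84 tested miRNAs, 8.33% (7 of 84) were higher in this non-overlapping way with scaling. miR-125b-5p was well above background on all 6 arrays. Others of the 7, such as miR-689 and miR-714, were so on only 4 arrays and at the floor on controls 2 and 3. They entered the tested set through the TGFβ group, so the filter favours this share. miR-326 was well above background on 0 of 6 arrays, so these data give it no direction. Of the 2 tested members, 0 were called by limma, with 1 lower and 1 higher.

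The let-7 list holds the best-known substrates of the uridylyl transferases that also modify the miR-324 precursor. With scaling, 9 of 9 members read lower with TGFβ, beside 49 of all 84 tested miRNAs. Their median log2 difference was -0.21, beside -0.09 over the 84, and 0 were called by limma. Without scaling 4 read lower and 5 higher, with a median of 0.13, beside 17 lower among all 84 and a median of 0.26. Those 4 thus read lower in both cases, as miR-324-5p did. Unscaled, miR-98 (-0.19) and let-7d (-0.17) lay near miR-324-5p (-0.21), while let-7f (-0.05) and let-7g (-0.04) were close to no difference.

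The miRNA genes next to Mir324 on chromosome 11 that have array entries were at or near background. Mir497 and Mir195a follow it, and their entries miR-497 and miR-195, of the miR-15/16 family, were well above background on 0 of 6 arrays. Mir467f and Mir744 precede it. miR-744 was well above background on 0 arrays, and miR-467f was on TGFβ 1 only (4.59 on the log2 scaled scale).

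**Figure D5:**
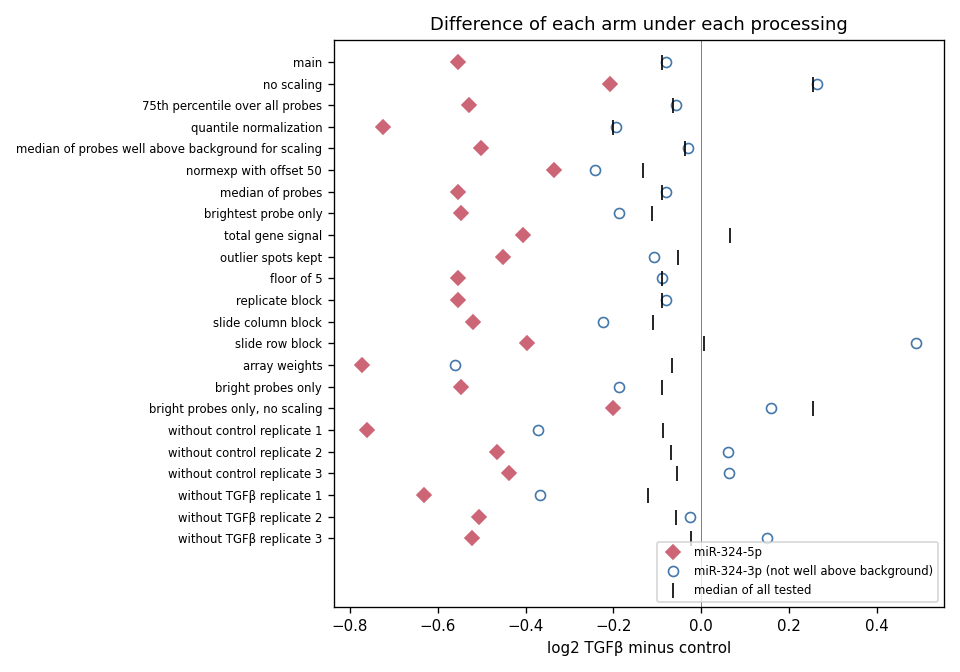
log2 difference, TGFβ minus control (x axis), of miR-324-5p (red diamonds), of miR-324-3p (open blue circles, signal not well above background) and of the median tested miRNA (black ticks) under each way of processing the arrays or leaving 1 out (y axis). miR-324-5p lay below 0 in every setting shown, from -0.77 to -0.20, while miR-324-3p fell on both sides of 0.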

How the data were processed

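Signals are the deposited spot intensity values that Agilent Feature Extraction gives after background subtraction, with no scaling from array to array, per the file headers. The headers give version 10.7.3.1 and the submitters' processing notes give 10.1.1, a difference left unresolved. All arrays were on 1 slide. Values in the deposited series matrix were identical (largest difference 0). The other deposited columns, flags and spot positions, are the scanner software's own, per the file headers. Saturated spots numbered 0.

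Spots of a probe were averaged without those marked as outliers, then the probes of a miRNA. Arrays were brought to a common 75th percentile, the geometric mean of the 6 array values, taken over the 105 probes that were well above background throughout. A floor of 1 was set and log2 taken. The 84 miRNAs measured above background in every array of the control or of the TGFβ group were fitted with limma 3.58.1 in R 4.3.3 (lmFit, eBayes, Benjamini-Hochberg, threshold 0.05), which was tested on simulated data. The precursor was folded with RNAfold 2.7.2. The number of arrays limits the precision.

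Deviations of same-numbered control and TGFβ arrays from their group means correlated at 0.38, 0.37 and 0.52 over the 84 miRNAs. The numbers come from the sample titles, which state no shared culture or day. They did not single out pairs, as control 2 with TGFβ 3 also correlated at 0.38. Because each same-number correlation was over 0.1, the replicate number was used as a block, but only among the alternatives. The main fit was unpaired. The alternatives changed scaling, background correction, probe summary, outlier spots, floor, filter, blocking, array weights and the arrays used. The planned normexp correction used median spot signals. The members, lists and tests were chosen with earlier results of these data known. Named beside the 2 arms are the 5 miRNAs most like each by correlation, precursors with both arms well above background on an array, the neighbours of miR-324-5p in order of difference, the neighbouring miRNA genes and the lists.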

Additional observations from a re-analysis of the deposited data

How the results depend on the processing

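The miR-324-5p difference was negative under all 22 alternatives, which reuse the arrays on which the arm was chosen. Some of these could not move it: the median of its 2 probes, the floor of 5 and the replicate block all gave -0.55 again. The brightest probe only and the bright probes only are the same reading for this arm, and both gave -0.55. The miR-324-5p difference moved beyond the spread between replicates (0.27) under 2 alternatives, both without scaling. These were -0.21 for the mean of probes and -0.20 for the brighter probe, the latter chosen after seeing the data. Leaving out single arrays gave -0.76 to -0.44. The replicate block left it and the other differences of the arms unchanged and took the count of called miRNAs from 0 to 1. The miR-324-3p difference turned positive without scaling (0.26), with the slide row as a block (0.49) and for its brighter probe without scaling (0.16), and ran from -0.37 to 0.15 when single arrays were left out. The arm ratio changed by -0.093 with normexp and -0.89 with the slide row block, and by -0.67 to -0.27 without single arrays. limma called 3 miRNAs with that block, 45 with array weights, and between 0 and 31 without single arrays, the 31 without control 1. Non-overlapping lower miRNAs numbered 0 without scaling, 3 with total gene signal, 0 with outlier spots kept and 18 with no filter, and between 5 and 38 without single arrays (38 without control 1, 11 without TGFβ 1 or TGFβ 2, 8 without TGFβ 3). The cause of these shifts was not tested. Total gene signal gave no value for miR-324-3p or the arm ratio. Signal near background limits everything said of miR-324-3p and of the dimmer miR-324-5p probe.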

Other observations

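The seed of miR-324-3p, CACUGCC, is the reverse complement of GGCAGUG, the seed of 4 mature mouse miRNAs in the RefSeq table: miR-34a-5p, miR-34b-5p, miR-449a-5p and miR-449c-5p. The miR-34 family is known for its induction by p53. The pair is shown with seeds in capitals.
mmu-miR-324-3p: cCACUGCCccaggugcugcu
mmu-miR-34a-5p: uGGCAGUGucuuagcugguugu
The letters CACUGCC occur in 9 of the 1679 mature names, searched on the strand as written. The seed of miR-324-5p is the reverse complement of the seed of 0 of them. This was looked for after the values were seen, and nothing in the arrays bears on whether the strands meet.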
